A study of Homo sapiens with 24 samples.

Results

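A set of 10 long noncoding RNA (lncRNA) genes was followed in SW872 cells, an established human liposarcoma line. They are SFTA1P, MALAT1, NEAT1, H19, MEG3, CYTOR, MIR31HG, GAS5, SNHG1 and MIR100HG. These 10 of the 60279 genes in each count table were chosen as well-annotated lncRNA genes and found by Ensembl identifier, and all 10 were present. The members and the wider lists used below were chosen with earlier results of these data known. The set was named for SFTA1P, which was selected on its counts in these same 24 libraries, so SFTA1P is described here without a test. MEG3 was at the count floor and was not tested, which leaves 8 tested members.

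Messenger RNA was sequenced in 24 libraries, 3 for each of 8 groups, to compare 2 sarcoma fusion proteins with the proteins they are made from. Every group carried the pBabeNeo retroviral vector as a pool of stably transduced, G418-selected cells, and the methods describe replicates as separate transductions. EV and EVsub carried the empty vector, and EVsub is the set titled sub-confluent. TAZ-CAMTA1 and YAP-TFE3 are the fusions found in epithelioid hemangioendothelioma. TAZ4SA and YAP5SA are full-length TAZ and YAP with alanine in place of serines that the LATS kinases of the Hippo pathway phosphorylate. TFE3 and CAMTA1 are the full-length transcription factors. Cells were collected 48 h after reaching confluence, apart from CAMTA1 and EVsub, so CAMTA1 was set against EVsub and the others against EV. All groups are 1 cell line with a forced transgene, so cell type and patient variation were not sampled.

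lncRNAs are transcripts without a long open reading frame that act as RNA, or whose transcription or processing is what matters. MALAT1 and NEAT1 stay in the nucleus, where MALAT1 gathers in speckles that hold splicing factors and NEAT1 forms the core of paraspeckles. H19 and MEG3 are imprinted, each expressed from the maternal chromosome beside a paternally expressed growth gene. GAS5 and SNHG1 carry small nucleolar RNAs (snoRNAs) in their introns, and their spliced RNA is a target of nonsense-mediated decay. MIR31HG and MIR100HG are hosts of microRNAs. YAP and TAZ do not bind DNA and act mainly through TEAD factors, often at sites shared with AP-1.

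Library totals ran from 19700277 to 35287476 counts, and the 10 members together took 0.05% to 0.127% of a library's counts. The mesenchymal genes VIM, COL1A2, COL6A3, PDGFRB and THY1 were counted in every library, while the adipocyte markers were at or near the floor, with PLIN1 and FABP4 as exceptions. ADIPOQ was at 0 in all 24 libraries, and CIDEC and LEP held at most 3 counts. PLIN1 held 10 to 38 counts in every library. FABP4 held 17 to 23 counts in the YAP-TFE3 libraries and at most 1 elsewhere, and its part in the YAP-TFE3 results was not tested. Endothelial PECAM1 and CDH5 were present at 41 to 253 and 77 to 1843 counts. CAMTA1 was higher than in the control in both groups that carry it, as was TFE3, and YAP1 was higher in YAP5SA (253 against 127.7 CPM in EV) than in YAP-TFE3 (152.7). WWTR1, the gene for TAZ, was not raised by its constructs: it was at 180.8 CPM in TAZ-CAMTA1, and its mean was 134 CPM in the libraries labelled TAZ4SA against 204 CPM in EV, a fall of 0.60 on the log2 scale (edgeR adjusted p = 9.77e-07). The label was therefore not borne out by its own gene, and each direction below that rests on them holds for libraries that carry this label, also where they are called TAZ4SA for short. WWTR1 was also below EV with both YAP constructs, which carry no TAZ. It was at 68.7 CPM in YAP5SA and 125.7 in YAP-TFE3, log2 fold changes of -1.57 and -0.70 (edgeR adjusted p = 1.70e-13 and 9.98e-08). WWTR1 was not called in TFE3 or EVsub against EV, or in CAMTA1 against EVsub. The paper shows a western blot for Flag-tagged TAZ4SA in SW872 cells. Whether the labelled libraries hold TAZ4SA transcript was not tested. CPM is edgeR's depth-scaled count, with library sizes adjusted by the trimmed mean of M-values (TMM).

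YAP-TFE3 replicate 3 stood apart from replicates 1 and 2 for several members. SFTA1P was at 4.48 CPM there against 10.1 and 10.5, H19 at 27.1 against 79.2 and 79.1, GAS5 at 116 against 208.6 and 209.6, and SNHG1 at 49.8 against 98.8 and 92.2. YAP5SA replicate 3 was the highest of its group for MALAT1, at 98.1 CPM against 49.6 and 54.9, and for NEAT1, at 81.3 CPM against 44.5 and 53.1. Where leaving out one of these 2 libraries changed a call or moved a printed log2 fold change by over 0.3, the value without it is also given. In bulk RNA, fewer cells with a transcript and less transcript per cell cannot be told apart.

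**Figure D1:**
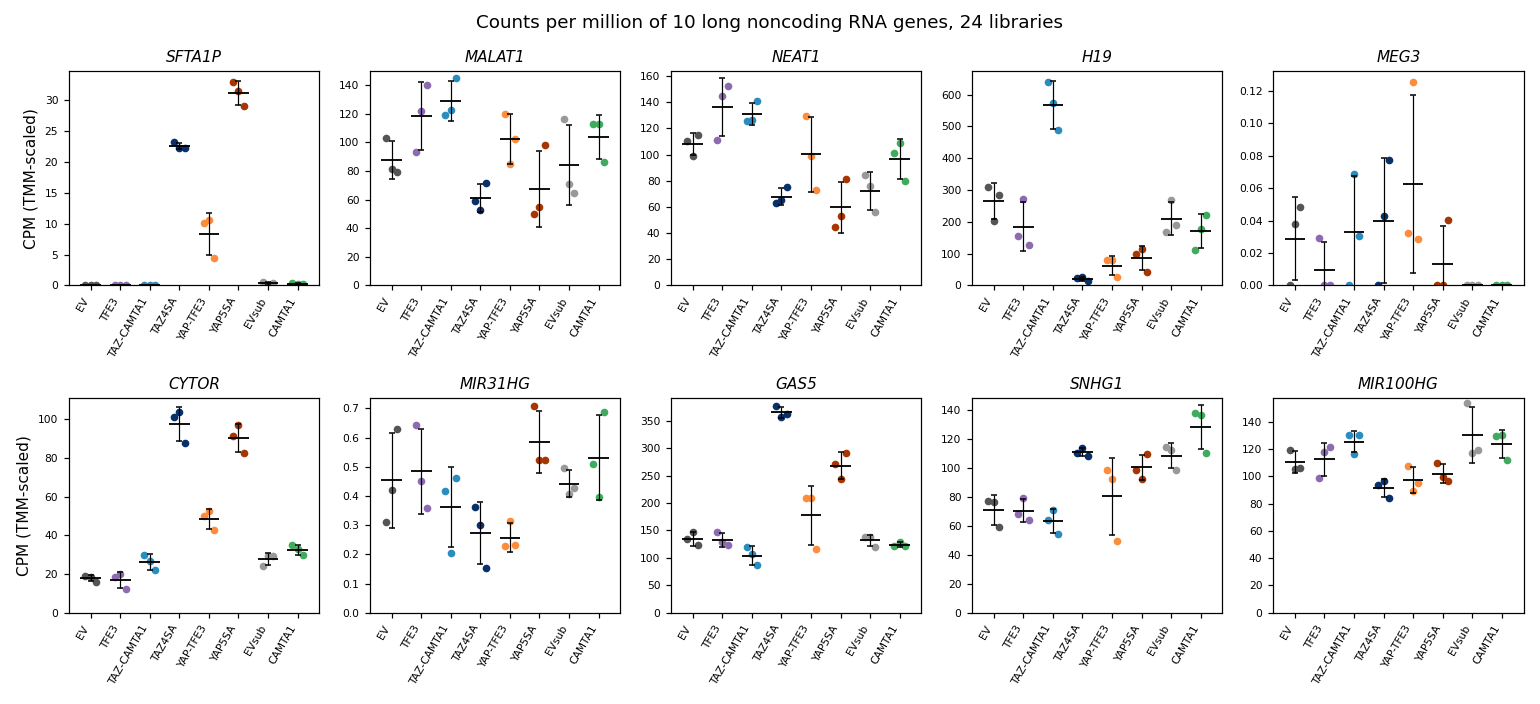
TMM-scaled CPM of the 10 members, 1 point per library, with the mean (bar) and SD (whisker) of the 3 libraries of each group; each panel has its own axis from 0. SFTA1P stands between 22.2 and 32.9 CPM in the TAZ4SA and YAP5SA libraries, H19 is highest in TAZ-CAMTA1 (489 to 639.7 CPM), and CYTOR and GAS5 are highest in TAZ4SA and YAP5SA.

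SFTA1P (ENSG00000225383) went from next to nothing to a well-counted RNA in 3 of the 8 groups. The gene, annotated as surfactant associated 1 pseudogene and best known from lung, is on the minus strand at chr10:10784437-10795047 (GRCh38), with no other annotated gene overlapping it. EV held 0, 1 and 0 counts and TFE3 held 2, 1 and 0. Both groups were at or under the floor of 3 counts, which corresponds to 0.0851 to 0.147 CPM in these libraries. TAZ-CAMTA1, at 2, 4 and 4 counts, lay about the floor. The sub-confluent groups were a little above it, at 13, 3 and 13 counts in EVsub and 15, 5 and 5 in CAMTA1.

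The other 3 groups held 155 SFTA1P counts or more in every library. The libraries labelled TAZ4SA had 577, 519 and 576 counts, or 23.2, 22.3 and 22.2 CPM, which is 22.6 ± 0.535 (SD, n = 3). YAP5SA had 696, 662 and 723 counts, or 32.9, 31.5 and 29.0 CPM, which is 31.1 ± 1.93. YAP-TFE3 had 312, 336 and 155 counts and a mean of 8.39 ± 3.39 CPM. These 3 groups did not overlap each other or any other group, in the order YAP5SA, TAZ4SA, YAP-TFE3. Of all tested genes, 57.8% in TAZ4SA, 52.6% in YAP5SA and 51.1% in YAP-TFE3 had no overlap with EV. Between YAP-TFE3 and YAP5SA 51.6% had none, and no share was taken between TAZ4SA and YAP5SA. SFTA1P was selected on these values. Below them, EVsub overlapped CAMTA1 and TFE3 overlapped EV.

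Ratios of summed SFTA1P counts per scaled library size show how far apart the groups were, with exact 95% intervals that cover counting error only. They leave out the spread between replicates, and SFTA1P was selected on these counts, so no interval here is a test. Because EV held 1 count in all, the ratios to EV have wide intervals: 1712 (307 to 67640) for TAZ4SA, 2353 (422 to 92980) for YAP5SA and 627 (112 to 24780) for YAP-TFE3. Without YAP-TFE3 replicate 3 the last was 787 (141 to 31110). Against the 29 counts of EVsub the ratios were 65.1 (45.1 to 97.5), 89.5 (62.1 to 134) and 23.8 (16.5 to 35.8), the last being 29.9 (20.6 to 45.0) without that library. TAZ-CAMTA1 stood at 8.61 times EV (1.23 to 374) on 10 counts, and TAZ4SA stood at 199 times TAZ-CAMTA1 (108 to 415). YAP5SA was at 3.75 times YAP-TFE3 (3.46 to 4.08), or 2.99 times (2.74 to 3.27) without YAP-TFE3 replicate 3, and 1.38 times TAZ4SA (1.29 to 1.47). EVsub was at 26.3 times EV (4.36 to 1074), and CAMTA1 at 0.860 times EVsub (0.483 to 1.52).

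The genes whose 8 group means of log2 CPM followed SFTA1P most closely, among 12292 genes with enough counts, were GALNT18, GOT1, PXDC1, ANXA5 and SNX8, with Pearson r of 0.993, 0.992, 0.992, 0.991 and 0.990. These are descriptions over 8 points that share the same 24 libraries. Over the 24 libraries singly, PXDC1 was the closest (r = 0.984) and was the 1 gene of these 5 that was again among the first 5. Of the other members, CYTOR was nearest to SFTA1P, at r = 0.973 and rank 47, and GAS5 stood at 0.882. NEAT1 and H19 ran the other way, at -0.766 and -0.839.

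The nearest protein-coding gene to SFTA1P is CELF2, 3350 bp away, which encodes an RNA-binding splicing regulator. CELF2 was also higher than in EV on the log2 scale, by 2.29 with TAZ4SA (SE 0.15, edgeR adjusted p = 8.90e-12) and by 1.5 with YAP5SA (SE 0.15, edgeR adjusted p = 1.71e-08). With YAP-TFE3 it was higher by 4.17 (SE 0.15, edgeR adjusted p = 2.93e-16) and with EVsub by 1.35 (SE 0.15, edgeR adjusted p = 1.69e-06). The order of the 2 genes differed: CELF2 was highest in YAP-TFE3, at 64.4 CPM against 10.1 in YAP5SA, where SFTA1P was highest.

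Levels between members can be compared only per length, here CPM per kb of annotated exon. In EV, H19 led at 76.6 ± 16.4 CPM per kb, followed by GAS5 at 27.3 ± 2.53, SNHG1 at 17.9 ± 2.56, MALAT1 at 8.43 ± 1.26, NEAT1 at 4.75 ± 0.371, MIR100HG at 3.66 ± 0.260 and CYTOR at 1.01 ± 0.0891, with no overlap between neighbours. MIR31HG was at 0.0273 ± 0.00979, and SFTA1P and MEG3 were below it and overlapped. In YAP5SA the order changed: GAS5 led at 54.4 ± 4.90, SNHG1 (25.2 ± 2.24) and H19 (24.7 ± 11.0) overlapped, and SFTA1P, at 9.78 ± 0.605, overlapped MALAT1 at 6.47 ± 2.55. Exon length is the union over all annotated isoforms, so genes with many isoforms, such as MIR100HG and CYTOR, come out low on this scale. Poly(A) selection also leaves out transcripts without a tail, including the long form of NEAT1 and most mature MALAT1, so the levels of these 2 are of what the selection kept.

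**Figure D2:**
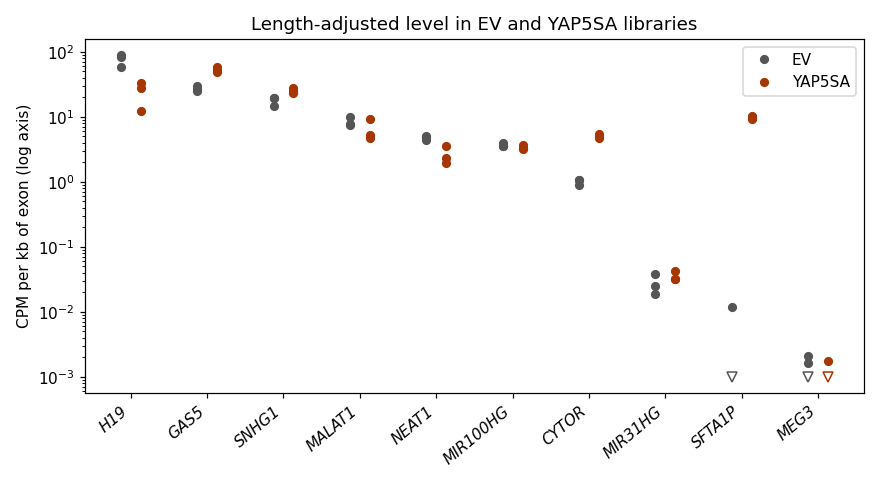
CPM per kb of exon (log axis) of the 10 members in EV and YAP5SA, 1 point per library, with members ordered by their EV mean; open triangles at the lower edge stand for libraries at 0 counts. SFTA1P goes from at most 1 count to 9.78 CPM per kb, while H19 goes from 76.6 to 24.7.

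Calls among the 8 tested members are given beside the share of all tested genes called, and no count was tested against that share. Because earlier results of these data were known when the members were chosen, the counts describe this list only. In TAZ-CAMTA1 against EV, 1 of 8 was called at an edgeR adjusted p under 0.05 and it was higher, where 4.98% of all 19997 tested genes were called, 3.55% higher and 1.44% lower. In the libraries labelled TAZ4SA, 6 of 8 were called, 3 higher and 3 lower (49.2% of all genes, 25.1% higher and 24.2% lower). In YAP5SA, 5 of 8 were called, 3 higher and 2 lower (44.3%, with 22.7% higher and 21.6% lower). In YAP-TFE3, 3 of 8 were called, 2 higher and 1 lower (48.2%, with 25.6% higher and 22.6% lower). Without replicate 3, 4 were called (26.1% of all genes higher and 23.6% lower).

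In EVsub against EV, 3 of 8 were called, 2 higher and 1 lower (36.8% of all genes, 19.8% higher and 17.1% lower). No member was called in TFE3 against EV, where 0.035% of all genes were called, all higher. None was called in CAMTA1 against EVsub either (1.83%, with 1.26% higher and 0.57% lower). At an unadjusted edgeR p under 0.05, these 2 comparisons held 0 and 1 members, and DESeq2 called 0 in either.

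The constructs were also set against each other. TAZ-CAMTA1 against the libraries labelled TAZ4SA gave 7 called members of 8 (53.7% of all genes), 4 higher in the fusion (26.9%) and 3 lower (26.8%). YAP-TFE3 against YAP5SA gave 5 (52.4%), 2 higher (28.1%) and 3 lower (24.3%). TAZ-CAMTA1 against YAP-TFE3 gave 4 (42.7%), 2 higher (19.9%) and 2 lower (22.8%). Without YAP-TFE3 replicate 3 it gave 5 (21% of all genes higher and 23.4% lower). With so many genes called, the members' shares are to be read against those backgrounds, and 8 genes are few. The comparisons with EV share the same 3 EV libraries.

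The split by direction rests partly on the scaling. Without TMM, by total counts, all log2 fold changes against EV shift by -0.20 in the libraries labelled TAZ4SA, by -0.19 in YAP5SA and by -0.09 in YAP-TFE3. On that scale the called members were 3 higher and 4 lower in TAZ4SA, 2 higher and 3 lower in YAP5SA, and 1 higher and 2 lower in YAP-TFE3. CYTOR, GAS5, H19 and NEAT1 kept their directions in TAZ4SA and YAP5SA there.

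**Figure D3:**
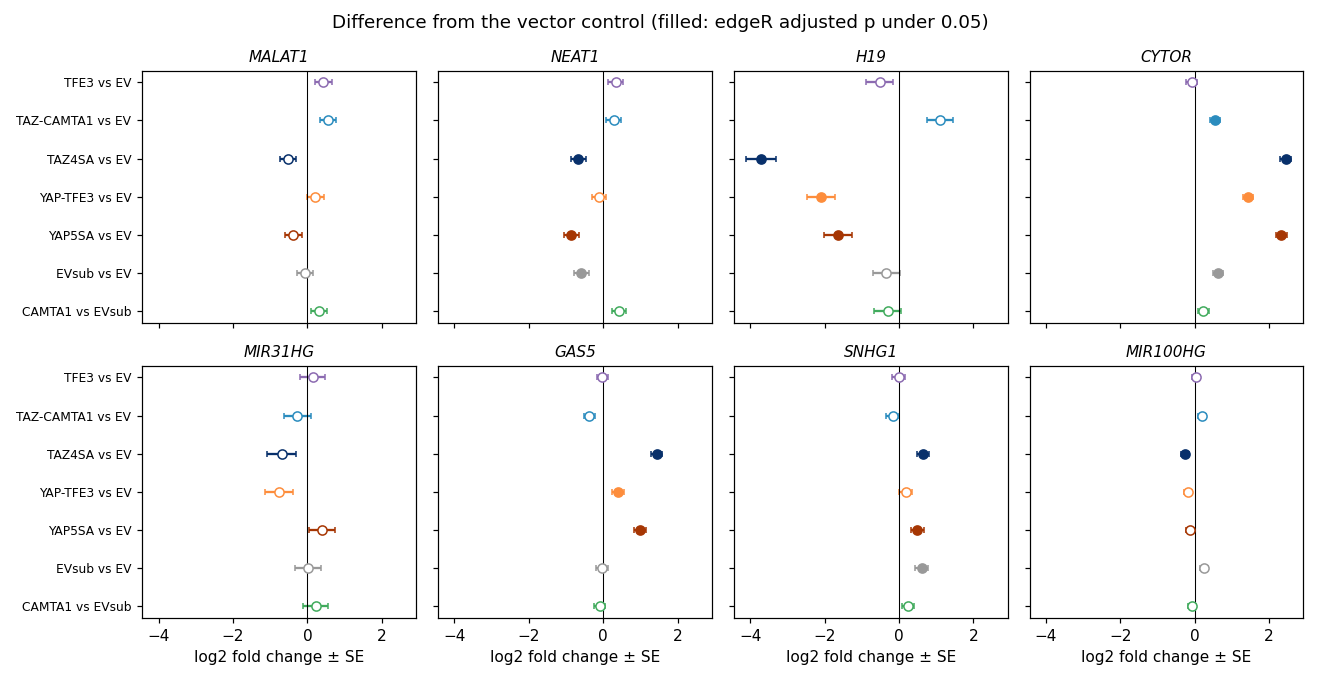
log2 fold change with its SE for the 8 tested members against the vector control grown to the same density, and for EVsub against EV; filled points have an edgeR adjusted p under 0.05. CYTOR is to the right of 0 in TAZ-CAMTA1, TAZ4SA, YAP-TFE3, YAP5SA and EVsub, H19 reaches -3.70 in TAZ4SA, and the TFE3 and CAMTA1 rows have no filled point.

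CYTOR (ENSG00000222041, chr2:87454781-87636740, plus strand, GRCh38), a cytoplasmic lncRNA linked to cytoskeleton and growth genes, was the member called higher in most comparisons with EV. EV libraries were at 19.1, 18.6 and 16.1 CPM. The libraries labelled TAZ4SA were at 101, 104 and 87.7 CPM, YAP5SA at 91.5, 96.9 and 82.8, and YAP-TFE3 at 50.1, 52.5 and 42.9. None of these groups overlapped EV, as for 57.8% of all tested genes in TAZ4SA, 52.6% in YAP5SA and 51.1% in YAP-TFE3. TAZ4SA and YAP5SA overlapped each other for CYTOR. The log2 fold change was 2.44 (SE 0.15, edgeR adjusted p = 2.16e-12) in TAZ4SA, 2.33 (SE 0.14, edgeR adjusted p = 3.94e-12) in YAP5SA and 1.43 (SE 0.14, edgeR adjusted p = 1.30e-08) in YAP-TFE3. Without YAP-TFE3 replicate 3 the last became 1.51.

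CYTOR also rose with lower cell density and, by little, with TAZ-CAMTA1. EVsub was at 24.4, 29.3 and 29.6 CPM, a log2 fold change of 0.63 over EV (SE 0.14, edgeR adjusted p = 0.00147). TAZ-CAMTA1 was at 29.96, 26.6 and 22.2 CPM, 0.54 over EV (SE 0.14, edgeR adjusted p = 0.0254). That call was lost without EV replicate 2 or 3 or TAZ-CAMTA1 replicate 1 or 2, at edgeR adjusted p of 0.0696 to 0.139. Both fusions were below their hyperactive parents, by 1.90 on the log2 scale for TAZ-CAMTA1 against TAZ4SA (edgeR adjusted p = 9.78e-11) and by 0.90 for YAP-TFE3 against YAP5SA (edgeR adjusted p = 6.16e-06).

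CYTOR has a near-identical copy on the other arm of chromosome 2, MIR4435-2HG, and the sources used here do not say which counting route made these tables or how it shared reads that fit both. The 2 genes are therefore uncertain as separate measurements. The RefSeq windows of 250 bases before to 50 after each start (GRCh38.p14) are printed because they show how far the copies match. CYTOR is at chr2:87455177-87455476 on the plus strand and MIR4435-2HG at chr2:111495112-111495411 on the minus strand. Both are 5′ to 3′, with matches to the AP-1 motif TGANTCA in capitals.
CYTOR: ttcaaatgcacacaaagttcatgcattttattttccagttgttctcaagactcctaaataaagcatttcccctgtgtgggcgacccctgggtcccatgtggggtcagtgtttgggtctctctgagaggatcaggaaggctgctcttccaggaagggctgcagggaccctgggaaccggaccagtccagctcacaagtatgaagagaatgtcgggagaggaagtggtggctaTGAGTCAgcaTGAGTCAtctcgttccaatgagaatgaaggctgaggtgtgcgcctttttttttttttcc
MIR4435-2HG: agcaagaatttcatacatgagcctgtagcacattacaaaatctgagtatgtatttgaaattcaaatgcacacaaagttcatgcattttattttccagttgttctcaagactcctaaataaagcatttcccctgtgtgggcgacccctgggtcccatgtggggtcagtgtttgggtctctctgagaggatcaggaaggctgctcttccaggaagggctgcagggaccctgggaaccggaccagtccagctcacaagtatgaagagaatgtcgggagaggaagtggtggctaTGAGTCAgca
Where they align, 241 bases were identical with 0 mismatches, and the remaining 118 positions were overhangs at the ends. The CYTOR window held the motif at -19 and -9 from its start and the MIR4435-2HG window at 40. Of all 35116 RefSeq promoter windows, 7.71% held TGANTCA, which reads the same on both strands. The TEAD motif GGAATG, searched on both strands, was in neither window and in 14% of all windows. The E-box CACGTG, a palindrome, was in neither and in 7.26% of all windows. Among the other members with a window, MALAT1, H19, MEG3, MIR31HG, GAS5, SNHG1 and MIR100HG, the only match was GGAATG in 1 MIR100HG window. The GAS5 window, chr1:173868996-173869295, lies wholly upstream of the GENCODE gene, so its result holds for that RefSeq start only. SFTA1P and NEAT1 had no entry in the promoter table.

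MIR4435-2HG moved with CYTOR. It was 0.54 above EV on the log2 scale in TAZ-CAMTA1 (edgeR adjusted p = 0.00975) and 1.62 lower in TAZ-CAMTA1 than in TAZ4SA (edgeR adjusted p = 1.50e-10). The ratio of CYTOR to MIR4435-2HG counts was 0.771 ± 0.0838 in EV, 0.927 ± 0.00912 with TAZ4SA and 0.916 ± 0.0497 with YAP5SA. In the other groups it averaged 0.704 to 0.764, so the ratio was higher in TAZ4SA and YAP5SA than in all other libraries.

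**Figure D4:**
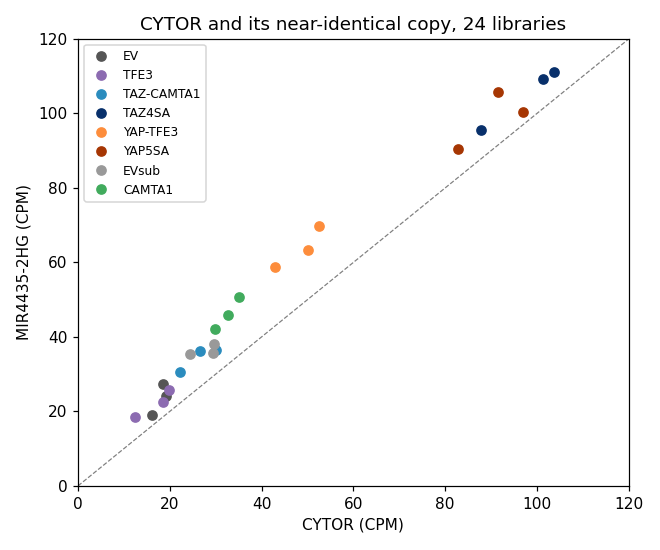
CPM of CYTOR and of its copy MIR4435-2HG, 1 point per library in 8 groups, with a dashed line of equal values. All 24 points lie above the line, and the TAZ4SA and YAP5SA libraries, at 82.8 to 104 CPM of CYTOR, lie apart from the rest.

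H19 (ENSG00000130600, chr11:1995166-2004552, minus strand, GRCh38), the imprinted RNA beside IGF2 and host of miR-675, fell with the libraries labelled TAZ4SA, YAP5SA and YAP-TFE3 and stood highest in TAZ-CAMTA1. EV libraries were at 309, 201 and 285 CPM. TAZ-CAMTA1 libraries were at 639.7, 574 and 489 CPM, all above EV, as for 13.7% of all tested genes. The log2 fold change of 1.10 (SE 0.36) was not called (edgeR adjusted p = 0.0822). Fitted on the EV and TAZ-CAMTA1 libraries only, the value of 1.09 had an edgeR adjusted p of 1.92e-04. The libraries labelled TAZ4SA were at 22.3, 25.9 and 13.1 CPM, the lowest of the 8 groups and apart from all others. Of all tested genes, 28.9% were lower in TAZ4SA than in EV without overlap. H19 fell by 3.70 on the log2 scale there (SE 0.40, edgeR adjusted p = 6.40e-08).

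H19 also fell with YAP5SA and YAP-TFE3. YAP5SA libraries were at 97.6, 116 and 42.8 CPM, a fall of 1.64 on the log2 scale (SE 0.37, edgeR adjusted p = 8.45e-04), or 1.31 without replicate 3 (edgeR adjusted p = 0.00698). In YAP-TFE3 the fall was 2.10 (SE 0.37, edgeR adjusted p = 5.28e-05), or 1.74 without replicate 3 (edgeR adjusted p = 3.33e-04). These 2 groups overlapped, and their difference of -0.47, YAP-TFE3 minus YAP5SA, was not called (edgeR adjusted p = 0.295). That difference was -0.11 without YAP-TFE3 replicate 3 (edgeR adjusted p = 0.819) and -0.79 without YAP5SA replicate 3 (edgeR adjusted p = 0.0700), and without the low-count filter it was called at -0.45 (edgeR adjusted p = 1.00e-04). The fusions differed widely from each other: TAZ-CAMTA1 was 3.20 above YAP-TFE3 (SE 0.39, edgeR adjusted p = 3.92e-07), or 2.84 without YAP-TFE3 replicate 3, and 4.80 above TAZ4SA (SE 0.42, edgeR adjusted p = 1.79e-09). In TFE3 (155, 271 and 127 CPM), EVsub (169, 269 and 191.5 CPM) and CAMTA1 (113, 178 and 220.5 CPM), no call was made.

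IGF2, the growth factor gene 124560 bp from H19 that shares its imprinting control region, moved opposite to it in some groups and with it in others. IGF2 was higher than EV in TAZ4SA, by 1.74 on the log2 scale (edgeR adjusted p = 2.79e-08), and in YAP5SA, by 1.94 (edgeR adjusted p = 5.28e-09), where H19 was lower. In TAZ-CAMTA1 it was higher by 0.69 (edgeR adjusted p = 0.0239), and in YAP-TFE3 it fell by 0.81 together with H19 (edgeR adjusted p = 8.25e-04), or by 1.13 without replicate 3 (edgeR adjusted p = 7.96e-06). Allele of origin is not read by these counts.

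MEG3 (ENSG00000214548, chr14:100779410-100861031, plus strand, GRCh38), the other maternally expressed RNA, held 16 counts over all 24 libraries. It was at 3 counts or fewer in 23 libraries, and YAP-TFE3 replicate 2 held 4. No group difference is readable at this depth. DLK1, the paternally expressed gene at the same locus, was counted at 9.25 CPM in EV with a log2 fold change of -2.88 in the libraries labelled TAZ4SA (edgeR adjusted p = 6.05e-04) and of -3.49 in YAP5SA (edgeR adjusted p = 2.29e-04), or -3.09 without YAP5SA replicate 3 (edgeR adjusted p = 0.00260).

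GAS5 (ENSG00000234741, chr1:173858559-173868882, minus strand, GRCh38), named for growth arrest and host of several snoRNAs of the box C/D kind, rose with both hyperactive proteins. EV libraries were at 134, 148 and 123 CPM. The libraries labelled TAZ4SA were at 377, 356 and 362.5 CPM and YAP5SA at 270.3, 243 and 291, each apart from EV and from each other. Of all tested genes, 57.8% in TAZ4SA and 52.6% in YAP5SA were apart from EV, and no share was taken between TAZ4SA and YAP5SA. The log2 fold changes of GAS5 were 1.44 (SE 0.15, edgeR adjusted p = 4.28e-08) and 0.99 (SE 0.15, edgeR adjusted p = 1.02e-05). TAZ-CAMTA1, at 119.8, 106 and 86.4 CPM, lay below EV by 0.37 without a call (edgeR adjusted p = 0.178). ZBTB37 and GAS5-AS1 overlap GAS5 on the opposite strand, and whether strand was used in the counting is not given in the sources used here.

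For GAS5 in YAP-TFE3, the call depended on the libraries and the fit. The log2 fold change over EV was 0.40 (SE 0.15, edgeR adjusted p = 0.0320) with overlapping groups, and 0.64 without YAP-TFE3 replicate 3 (edgeR adjusted p = 3.87e-05). It was not called without EV replicate 1 or 3 or YAP-TFE3 replicate 1 or 2 (edgeR adjusted p of 0.0718 to 0.191), by total counts (0.32, edgeR adjusted p = 0.0887) or on the compared groups alone (0.39, edgeR adjusted p = 0.138). Both fusions lay below their hyperactive parents, TAZ-CAMTA1 by 1.81 (edgeR adjusted p = 1.08e-09) and YAP-TFE3 by 0.59 (edgeR adjusted p = 0.00197), or by 0.36 without YAP-TFE3 replicate 3 (edgeR adjusted p = 0.00920).

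SNHG1 (ENSG00000255717, chr11:62851978-62855953, minus strand, GRCh38), with 7 snoRNA entries annotated inside it, rose less. EV libraries were at 77.2, 76.6 and 59.3 CPM, and the libraries labelled TAZ4SA at 110.4, 114 and 108, a log2 fold change of 0.64 (SE 0.17, edgeR adjusted p = 0.00297). YAP5SA libraries were at 98.8, 92.2 and 109.8 CPM, a change of 0.50 (SE 0.17, edgeR adjusted p = 0.0190). That call was lost by total counts (0.31, edgeR adjusted p = 0.140) and without EV replicate 3 or YAP5SA replicate 3 (edgeR adjusted p of 0.102 and 0.0683). EVsub, at 114.5, 112.5 and 98.4 CPM, was 0.61 above EV (SE 0.17, edgeR adjusted p = 0.00641), so SNHG1, unlike GAS5 (-0.03, edgeR adjusted p = 0.891), rose in sub-confluent vector cells. YAP-TFE3 was 0.17 above EV (edgeR adjusted p = 0.410), and 0.43 without replicate 3 (edgeR adjusted p = 0.00624). SLC3A2, the amino acid transporter subunit whose gene starts 51 bp from SNHG1, was higher by 1.89, 2.01 and 1.82 on the log2 scale in TAZ4SA, YAP5SA and YAP-TFE3 (edgeR adjusted p = 1.49e-07, 6.30e-08 and 2.35e-07), and the last became 2.16 without YAP-TFE3 replicate 3 (edgeR adjusted p = 3.36e-12).

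Among the hosts listed here, called snoRNA hosts, like GAS5, were all higher with the hyperactive proteins. SNHG14, which also hosts snoRNAs, was listed as imprinted and is not among these hosts. It was not called in YAP5SA against EV (0.08, edgeR adjusted p = 0.564). In TAZ4SA 1 of 3 tested imprinted lncRNAs was called, and it was lower (24.2% of all genes lower). Of 16 tested hosts besides the members, 9 rose and 0 fell in the libraries labelled TAZ4SA, with a median log2 fold change of 0.39, where 25.1% of all tested genes were called higher. In YAP5SA 9 rose and 0 fell, with a median of 0.32 (22.7% of all genes called higher), and 7 rose without YAP5SA replicate 3 (21.9%). The median over all tested genes was -0.03 and -0.04. By total counts all log2 fold changes shift by -0.20 in TAZ4SA and -0.19 in YAP5SA, so the host medians rest partly on the scaling. SNHG32 (1.28 in TAZ4SA and 1.04 in YAP5SA) and ZFAS1 (0.99 and 0.77) were the highest. In YAP-TFE3 4 hosts rose (SNHG8, SNHG16, SNHG32 and EPB41L4A-AS1) and 5 fell (SNHG3, SNHG6, SNHG7, SNHG20 and DANCR), with a median of -0.05, where 25.6% of all genes were called higher and 22.6% lower. This split turned on replicate 3. Without it 7 hosts rose, with SNHG15, SNHG17 and ZFAS1 added, 3 fell (SNHG6, SNHG7 and SNHG20), and the median was 0.05. In that fit 26.1% of all genes were called higher and 23.6% lower. SNHG8 was 0.54 above EV with that library (edgeR adjusted p = 0.0416) and 0.88 without it (edgeR adjusted p = 1.52e-06).

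In TAZ-CAMTA1 3 hosts fell, SNHG29, SNHG6 and SNHG32, while 1.44% of all genes were called lower. SNHG29 fell by 0.41 (edgeR adjusted p = 0.00586) and SNHG6 by 0.38 (edgeR adjusted p = 0.00865). The median of the 16 was -0.30, and 15 of them had a negative value, where the median over all tested genes was 0.005. The 5 calls of the wider list in this comparison, these 3 hosts among them, fell to as few as 1 when 1 library was left out. Set directly against their parents, 13 of 16 were lower in TAZ-CAMTA1 than in the libraries labelled TAZ4SA and 0 higher, where 26.8% of all genes were called lower. In YAP-TFE3 against YAP5SA 10 of 16 were lower and 0 higher, where 24.3% of all genes were called lower. Without YAP-TFE3 replicate 3 these became 7 lower and 2 higher, SNHG8 and EPB41L4A-AS1 (25.2% of all genes lower and 28.3% higher). Without YAP5SA replicate 3 they became 8 lower and 0 higher (23.4% of all genes lower and 27.6% higher). SNHG7 was 0.85 lower in YAP-TFE3 than in YAP5SA (edgeR adjusted p = 7.81e-08).

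Many snoRNA hosts begin with a terminal oligopyrimidine tract, a C followed by further pyrimidines at the transcript start, which ties translation to the mTOR kinase. The first 30 bases after the RefSeq start (GRCh38.p14) are printed for the 2 member hosts and the 2 hosts with the largest rise, 5′ to 3′, with an opening C and the pyrimidines that follow it in capitals.
GAS5: agatgtgtttattttggagcctacaccagc
SNHG1: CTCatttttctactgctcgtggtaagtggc
SNHG32: CTTTTTgcgaagtgggctcgtgggttggca
ZFAS1: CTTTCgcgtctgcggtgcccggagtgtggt
An opening C with a run of at least 5 pyrimidines was found in 6 of 17 snoRNA hosts with a window and in 4.07% of all windows. Of these 6, SNHG4 was not in the files and SNHG18 was not tested. SNHG12, with a run of 11, was not called in YAP5SA (-0.14, edgeR adjusted p = 0.424). SNHG5, with a run of 5, was higher there (0.63, edgeR adjusted p = 6.19e-05). Whether the run goes with the rise was not tested. By this RefSeq start GAS5 does not open with C, and SNHG1 has a run of 3, while SNHG32 has 6 and ZFAS1 has 5. The GAS5 start used, chr1:173869045, lies upstream of the GENCODE gene, which is on the minus strand and begins at 173868882. Its printed bases are outside that gene, so whether GAS5 opens with such a tract is not settled here. A start shifted by a few bases would change these letters.

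**Figure D5:**
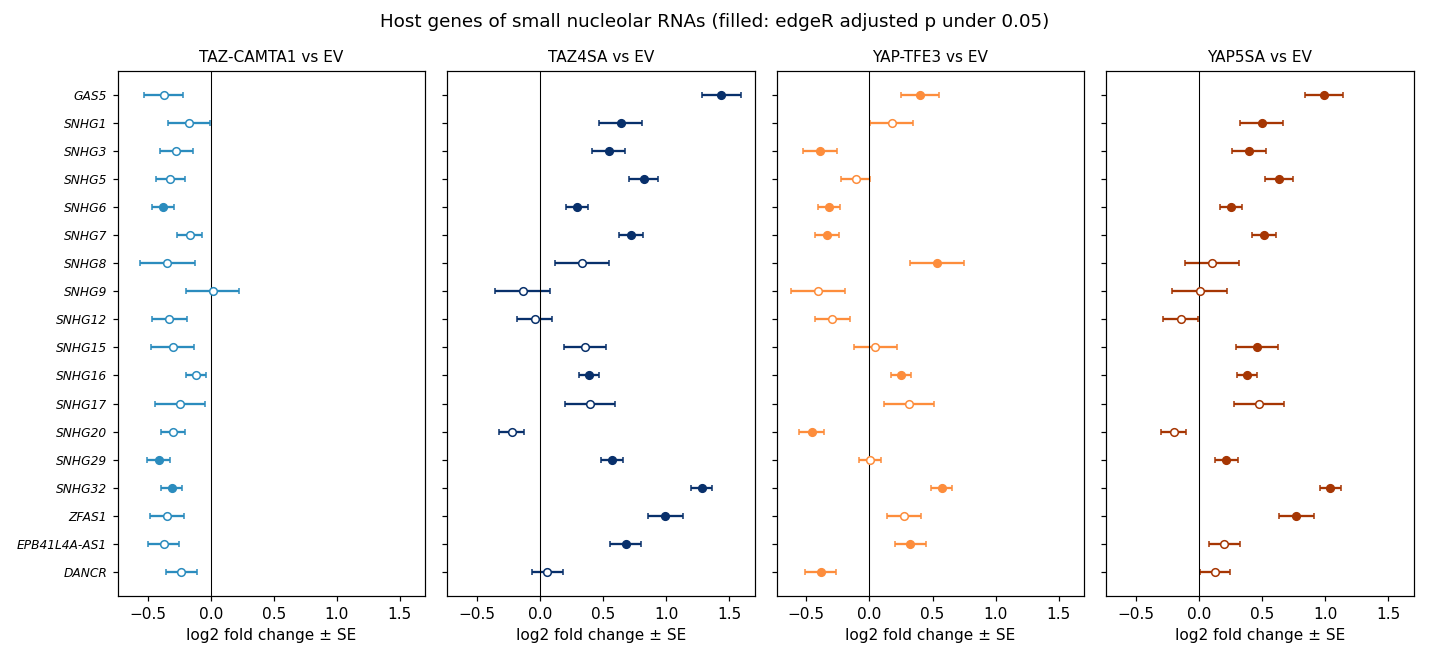
log2 fold change against EV with its SE for GAS5, SNHG1 and 16 other snoRNA host genes in 4 groups; filled points have an edgeR adjusted p under 0.05. In TAZ4SA and YAP5SA all filled points lie to the right of 0, in TAZ-CAMTA1 the 3 filled points lie to the left, and YAP-TFE3 has both.

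NEAT1, the paraspeckle RNA, fell with both hyperactive proteins. NEAT1 (ENSG00000245532, chr11:65422774-65445540, plus strand, GRCh38) was at 111, 98.6 and 115 CPM in EV, at 63.4, 65.1 and 75.1 in the libraries labelled TAZ4SA and at 44.5, 53.1 and 81.3 in YAP5SA, with no overlap with EV. Of all tested genes, 57.8% in TAZ4SA and 52.6% in YAP5SA had no overlap with EV. NEAT1 fell by 0.67 on the log2 scale in TAZ4SA (SE 0.20, edgeR adjusted p = 0.00656) and by 0.86 in YAP5SA (SE 0.20, edgeR adjusted p = 0.00105), or by 1.15 without YAP5SA replicate 3 (edgeR adjusted p = 5.69e-05). In EVsub, at 84.4, 76.1 and 55.9 CPM, it fell by 0.58 (SE 0.20, edgeR adjusted p = 0.0215), and that call was lost without EV replicate 3 or EVsub replicate 3 (edgeR adjusted p of 0.0723 and 0.130). NEAT1 was higher in TAZ-CAMTA1 than in TAZ4SA by 0.95 (edgeR adjusted p = 2.71e-04) and higher in YAP-TFE3 than in YAP5SA by 0.75 (edgeR adjusted p = 0.00252), or by 0.94 without YAP-TFE3 replicate 3 (edgeR adjusted p = 2.69e-04) and 1.04 without YAP5SA replicate 3 (edgeR adjusted p = 1.12e-04).

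MALAT1 (ENSG00000251562, chr11:65497640-65508073, plus strand, GRCh38) lies next to NEAT1 on chromosome 11, and was called between constructs but not against EV in the fit over all libraries. EV libraries were at 103, 81.5 and 79.2 CPM, those labelled TAZ4SA at 59.2, 52.6 and 71.4, and TAZ-CAMTA1 at 119, 123 and 145. Against EV the log2 fold change was -0.53 in TAZ4SA (SE 0.22, edgeR adjusted p = 0.0546), 0.55 in TAZ-CAMTA1 (SE 0.22, edgeR adjusted p = 0.174) and -0.38 in YAP5SA (SE 0.22, edgeR adjusted p = 0.175). Without YAP5SA replicate 3 the last was -0.75 (edgeR adjusted p = 0.00674), and without TAZ4SA replicate 3 the first was -0.65 (edgeR adjusted p = 0.0377). These calls depended on the fit. The TAZ-CAMTA1 value was called on the compared groups alone (0.55, edgeR adjusted p = 0.00604) and without the low-count filter (0.56, edgeR adjusted p = 1.34e-05). The TAZ4SA value was called in the same fits (-0.53 and -0.52, edgeR adjusted p = 0.00287 and 1.58e-05), by total counts (-0.72, edgeR adjusted p = 0.0166) and by DESeq2 (-0.53, adjusted p = 0.0417). Set directly against each other, TAZ-CAMTA1 was 1.08 above TAZ4SA (SE 0.22, edgeR adjusted p = 2.93e-04). YAP-TFE3 was 0.60 above YAP5SA (SE 0.22, edgeR adjusted p = 0.0280) with overlapping groups, or 0.97 without YAP5SA replicate 3 (edgeR adjusted p = 6.19e-04). The call was lost without YAP5SA replicate 1 or 2 or YAP-TFE3 replicate 1 (edgeR adjusted p of 0.120 to 0.162). TALAM1 and another lncRNA gene overlap MALAT1 on the opposite strand.

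MIR100HG (ENSG00000255248, chr11:122028325-122556721, minus strand, GRCh38), host of let-7a, miR-100 and miR-125b, was the steadiest of the well-counted members, its highest group mean being 1.42 times its lowest. EV libraries were at 119.5, 106 and 106 CPM and those labelled TAZ4SA at 93.5, 96.9 and 84.4, a fall of 0.27 on the log2 scale (SE 0.11, edgeR adjusted p = 0.0379). That call was lost without EV replicate 1 or TAZ4SA replicate 1 or 3 (edgeR adjusted p of 0.065 to 0.158). TAZ-CAMTA1 was above TAZ4SA by 0.46 (edgeR adjusted p = 9.17e-04) and above YAP-TFE3 by 0.37 (edgeR adjusted p = 0.00698).

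MIR31HG (ENSG00000171889, chr9:21380073-21559891, minus strand, GRCh38), host of miR-31, was scarce, at 4 to 22 counts per library, and overlaps interferon genes. YAP-TFE3 libraries were at 0.228 to 0.314 CPM and YAP5SA at 0.522 to 0.708, and this was its 1 called comparison, 1.17 lower in YAP-TFE3 on the log2 scale (SE 0.37, edgeR adjusted p = 0.00982). Poly(A) libraries of this kind do not measure the mature microRNAs.

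A wider list of 83 other lncRNAs was examined to place the members, of which 75 were in the files and 61 were tested. It was also chosen with earlier results known, so its counts and those of its HOX and stress groups describe the lists only. Called genes numbered 34 in the libraries labelled TAZ4SA, 35 in YAP-TFE3, 31 in YAP5SA, 25 in EVsub, 5 in TAZ-CAMTA1, 2 in CAMTA1 and 0 in TFE3. As shares of the 61 these were 55.7%, 57.4%, 50.8%, 41%, 8.2%, 3.28% and 0%. Over all tested genes the shares were 49.2%, 48.2%, 44.3%, 36.8%, 4.98%, 1.83% and 0.035%, in the same order. The 5 in TAZ-CAMTA1 were HOTAIRM1, MIR4435-2HG, SNHG29, SNHG6 and SNHG32. In TFE3, 4 had an unadjusted edgeR p under 0.05 and DESeq2 called 0. Over all 3193 tested lncRNA genes, 35.1% were called in TAZ4SA, 33.1% in YAP-TFE3, 31.4% in YAP5SA and 1.94% in TAZ-CAMTA1, in each case a smaller share than over all genes. Their median absolute log2 fold change was larger than over all genes in the same groups. It was 0.546 against 0.416, 0.486 against 0.408, 0.524 against 0.384 and 0.256 against 0.172. Count depth was not matched between these sets. The TAZ-CAMTA1 count fell to 1 without EV replicate 2 or TAZ-CAMTA1 replicate 3 and to 3 without EV replicate 3, and the CAMTA1 count rose to 6 without CAMTA1 replicate 3. By total counts the splits became 17 higher and 19 lower in TAZ4SA, in place of 21 and 13, and 14 and 15 in YAP5SA, in place of 20 and 11.

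UCA1, an RNA first described in bladder cancer, rose in 4 groups. It stood at 27.0 CPM in EV, 218 in the libraries labelled TAZ4SA, 196 in YAP-TFE3, 239 in YAP5SA and 125 in EVsub, with log2 fold changes of 3.02, 2.86, 3.15 and 2.21 (edgeR adjusted p = 5.04e-11, 1.14e-10, 2.60e-11 and 2.40e-07). In TAZ-CAMTA1 it was at 28.4 CPM, 2.94 below TAZ4SA (edgeR adjusted p = 7.24e-11). MIR503HG, a microRNA host on the X chromosome, rose by 2.19 in TAZ4SA and 2.30 in YAP5SA (edgeR adjusted p = 4.59e-07 and 2.46e-07). MIR17HG, host of the miR-17-92 cluster, was 1.97 higher in EVsub than in EV (edgeR adjusted p = 1.97e-04), while MIRLET7BHG was 0.97 lower (edgeR adjusted p = 5.06e-05) and MIAT 0.71 lower (edgeR adjusted p = 0.00629). LINC01116 fell by 0.76 in YAP-TFE3 (edgeR adjusted p = 7.28e-06), and LINC00511 fell by 0.82 in YAP5SA (edgeR adjusted p = 4.05e-04). TINCR, an epidermal differentiation RNA, was 1.34 higher in YAP-TFE3 than in YAP5SA (edgeR adjusted p = 9.63e-07).

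RNAs of the HOX clusters were called in 6 of 6 cases in the libraries labelled TAZ4SA, 5 lower and 1 higher, where 49.2% of all genes and 35.1% of lncRNA genes were called and 24.2% of all genes were lower. HOXB-AS3 fell by 0.90 and HOXA-AS2 by 0.82 (edgeR adjusted p = 5.72e-06 and 2.09e-06), and HOTAIR fell by 0.76 (edgeR adjusted p = 0.00280). HOTAIRM1 and HOTTIP were the other two lower ones, and HOXA11-AS rose, by 0.53 (edgeR adjusted p = 0.0147). In YAP5SA HOTTIP, HOXB-AS3 and HOXA-AS2 fell and HOXA11-AS rose (21.6% of all genes lower and 22.7% higher), and HOTTIP was not called without YAP5SA replicate 3. In YAP-TFE3 HOTTIP and HOXA-AS2 fell and HOTAIRM1 rose (22.6% lower and 25.6% higher). Without YAP-TFE3 replicate 3 HOTTIP was not called and HOTAIR was called higher. HOTAIRM1 rose in TAZ-CAMTA1 by 0.55 (edgeR adjusted p = 0.00803). Several of these genes are antisense to HOX genes, and their counts are uncertain where strand was not used.

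Of 7 tested p53- and stress-linked lncRNAs, 5 rose and 0 fell in YAP-TFE3 (NORAD, TP53TG1, PVT1, LUCAT1 and NKILA), where 25.6% of all genes were called higher. Without YAP-TFE3 replicate 3 the rise of LINC-PINT was called too, which made 6 (26.1% of all genes higher). PVT1 and LUCAT1 rose in TAZ4SA (25.1% of all genes higher), PVT1 and NKILA rose and LINC-PINT fell in YAP5SA (22.7% higher and 21.6% lower), and 0 were called in TAZ-CAMTA1. LUCAT1, induced by oxidative stress through NRF2, rose by 3.11 in YAP-TFE3 (SE 0.49, edgeR adjusted p = 1.24e-05), or by 3.60 without replicate 3 (edgeR adjusted p = 3.82e-10). NORAD, which binds Pumilio proteins and is induced by DNA damage, rose by 0.43 (edgeR adjusted p = 0.00318). NKILA rose by 0.82 (edgeR adjusted p = 3.66e-04).

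CAMTA1 had 2 called genes in the wider list, both higher than in EVsub. SNHG14, the long imprinted transcript antisense to UBE3A that hosts snoRNA clusters, was at 449.5 CPM against 81.5, a log2 fold change of 2.46 (SE 0.11, edgeR adjusted p = 2.65e-13). MIAT, a nuclear RNA best known from neurons and heart, was at 17.0 CPM against 3.12, a change of 2.46 (SE 0.19, edgeR adjusted p = 3.14e-09). No tested member was called in that comparison, and SFTA1P there held 25 counts against 29.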

How the data were processed

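Polyadenylated RNA of 24 SW872 libraries was sequenced by the authors on a stranded kit with paired ends. Each deposited file gives, for 1 library, unnormalized read counts by Ensembl identifier, and the authors ran bcbio-nextgen 1.0.8 on hg38 with Ensembl release 78. The methods describe genome alignment and also Salmon with tximport for gene counts. Which route made these whole-number files, its strand setting and its handling of reads that fit several genes are not given in the sources used here. Replicates were not pooled. They differed by more than sampling noise (lowest chi-square per degree of freedom 3.32 to 14.5). Groups were taken from the sample titles.

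A single edgeR 4.0.16 quasi-likelihood model (R 4.3.3) covered all 24 libraries, with TMM scaling and 1 mean per group. Genes averaging 5 counts or more were tested, 19997 in all, and those under 0.05 after Benjamini-Hochberg adjustment were called. p-values measure the spread between these libraries. Each SE is the log2 fold change over the root of F. Coordinates, exon lengths and overlaps are of GENCODE 44, and promoter windows are of RefSeq. A total of 3 counts was taken as the floor. Intervals are exact, at 95%. No molecular identifiers were described. The self-test on simulated counts ran before the fits.

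The members and lists were chosen with earlier results of these data known. From the wider list, the text could name up to 2 higher and 2 lower called genes a comparison, with a mean of at least 100 counts and no overlap of replicates, and from SFTA1P's likes the first 5 genes. Neighbours were named where a result turned on them. Calls numbering 5 or fewer were named. ZFAS1 was chosen after its values were seen. Alternatives were no filter, a mean of at least 20 counts, total-count scaling, DESeq2 1.42.0, the compared groups alone, a replicate block, and each library left out. List counts and SFTA1P ratios without YAP-TFE3 or YAP5SA replicate 3 were added after the data were seen.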

Additional observations from a re-analysis of the deposited data

How the results depend on the processing

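Of 80 member values, 34 were called, 28 of these under every alternative and 6 lost in at least 1, and no called value changed sign. Over 950 alternative values, 869 kept direction and call. Without the low-count filter the called members numbered 4 in TAZ-CAMTA1 against EV, 2 in TFE3 against EV, 1 in CAMTA1 against EVsub and 7 in TAZ-CAMTA1 against YAP-TFE3, and the called listed genes in CAMTA1 against EVsub numbered 5; the cause was not tested. DESeq2 and the compared groups alone also gave 5 of the latter, and the compared groups alone gave 3 members in TAZ-CAMTA1 against EV. Leaving out 1 library gave 0 to 1 members and 1 to 5 listed genes in TAZ-CAMTA1 against EV, and 2 to 6 listed genes in CAMTA1 against EVsub.

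Sign changes were seen only in values that were not called. In TFE3 against EV, GAS5 went to 0 and SNHG1 to 0.01 without the filter. By total counts MIR31HG went to -0.06 in EVsub against EV and MIR100HG to 0.04 in YAP-TFE3 against YAP5SA. Leaving out 1 library gave ranges in TFE3 against EV of -0.22 to 0.09 for CYTOR, -0.1 to 0.05 for GAS5, -0.03 to 0.11 for MIR100HG, -0.11 to 0.42 for MIR31HG and -0.13 to 0.05 for SNHG1. In EVsub against EV they were -0.1 to 0.04 for GAS5, -0.37 to 0.09 for MALAT1 and -0.22 to 0.28 for MIR31HG. MIR100HG in CAMTA1 against EVsub ran from -0.14 to 0.07, MIR31HG in TAZ-CAMTA1 against EV from -0.51 to 0, and in YAP-TFE3 against EV NEAT1 ran from -0.33 to 0.08 and SNHG1 from 0 to 0.43.

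Replicate numbers recur in the titles, but libraries with the same number did not deviate together (mean r of -0.0257 to 0.129 per comparison, and 0 of 10 comparisons with all 3 pairs over 0.1). With the replicate number as a block, SNHG1 in YAP-TFE3 against YAP5SA became called (-0.36, edgeR adjusted p = 0.0327), MIR31HG in EVsub against EV went to 0, and no other member call changed. Depth limits MEG3, MIR31HG and SFTA1P in EV, TFE3 and TAZ-CAMTA1, which lie at or near the floor.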
